A study of Mus musculus with 10 samples.

Results

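The genes of the splicing machinery and of the proteins that coat pre-mRNA were followed in mouse hearts lacking LARP7. They were taken by name as all genes whose symbol begins with Snrp, Lsm and a digit, Sf3a or Sf3b, Prpf and a digit, Srsf and a digit, or Hnrnp, which gave 79 of the 20982 genes listed in either of 2 deposited tables. The embryonic table held 64 of them and the adult one 78, with 63 in both, and all of them passed the filter on low values in the table that listed them. They were ordered into 6 classes: snRNP core, Lsm, SF3, PRPF, SR and hnRNP genes.

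The embryonic comparison set 3 samples of whole Larp7-/- hearts against 3 of Larp7+/+ hearts at E15.5, and the adult comparison set 2 samples labelled mCKO (Myh6Cre;Larp7f/f) against 2 labelled CTR (Larp7f/f), taken from the heart apex at 4 months, all on the C57BL/6 strain. The Myh6 promoter drives Cre in cardiomyocytes, so other cells of the apex keep the floxed gene, whereas the Larp7-/- embryos are conventional knockouts. The labels give the CTR group floxed Larp7 alleles and no Cre. The labels do not say whether replicates are different animals. The p-values then reflect the spread of these samples alone, which may be technical.

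The spliceosome removes introns with small nuclear ribonucleoproteins (snRNPs), each a small nuclear RNA bound by a ring of proteins. The U1, U2, U4 and U5 RNAs carry a ring of Sm proteins, encoded by Snrp genes, whereas U6 carries a ring of Lsm2 to Lsm8. SF3 proteins hold U2 at the branch point, PRPF proteins build and remodel the complex around its catalytic centre, and SR and hnRNP proteins bind the transcript and steer the choice of splice sites. LARP7 binds the 7SK RNA, which restrains the elongation kinase P-TEFb, and it is also known to bind U6 and to promote ribose methylation of that RNA.

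Each value is a per-million value that the authors rounded to a whole number, here called a unit, and values summed to between 998498 and 1001508 per sample, so the depth in reads is unknown. Whether they were scaled for gene length is not given, so levels are compared between samples and not between genes. The knockout and control values with the same replicate number added to the same total, within 2, in all 64 and all 78 members and in nearly all other genes, so the SDs of the 2 groups are close to equal by construction and are not independent. Larp7 itself had 45, 54 and 40 units in Larp7-/- hearts, against 96, 88 and 103 in Larp7+/+ hearts (log2 change -1.04, SE 0.17, adjusted p = 0.00159, limma), so it fell and was not absent. That call was lost with no rounding variance (adjusted p = 0.473) and with a plain eBayes prior (0.529). In the adult it had 26 and 24 in the mCKO samples, against 26 and 28 in the CTR samples (log2 change -0.11, SE 0.17, adjusted p = 0.933), so in the apex the groups met at 26 and the targeted gene did not separate the libraries labelled mCKO from those labelled CTR.

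At E15.5 the medians of the 6 classes lay between -0.23 and 0.13 on the log2 scale. The genes of the U6 ring and of the snRNP core had lower values in Larp7-/- hearts in nearly every case. The PRPF genes mostly had higher ones, as did 60.4% of all tested genes, and their median of 0.13 was close to the 0.107 of all tested genes. The SF3, SR and hnRNP classes had medians near 0, below that of all tested genes. These are signs and medians with no test of the classes, and the change also moved with mRNA length. No member passed the test, that is, none reached an adjusted p under 0.05 over the 13609 genes tested by limma, against 0.632% of all tested genes (0.529% higher and 0.103% lower in Larp7-/- hearts). The lowest adjusted p among members was 0.0891. At an unadjusted p under 0.05 there were 6 members with higher values and 8 with lower ones of 64, where the shares over all genes were 10.3% and 3.62%.

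The values of the 2 groups did not overlap in 10 members that were higher in Larp7-/- hearts (15.6%) and in 17 that were lower (26.6%). Over all tested genes the shares were 19.3% and 8.75%. Among the 60 members with a mean of at least 10 units the shares were 16.7% higher and 28.3% lower, against 25.2% and 12.9% of all genes at that level. The median log2 change was -0.03 over the members, against 0.107 over all tested genes. A positive change stood in 29 of 64 members and a negative one in 35 of 64 (54.7%), where 60.4% of all tested genes had a positive and 33.1% a negative change.

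The U6 ring, a part of the Lsm class, had a lower median than any of the 6 classes. All 6 ring genes listed at E15.5 had a negative log2 change, with a median of -0.42, and in 5 of the 6 every Larp7-/- value lay below every Larp7+/+ value. Lsm7 was not listed in the embryonic table. The ring genes are not neighbours in the genome, with, for instance, Lsm4 at chr8:70673248-70678752 and Lsm2 at chr17:34981862-34985891 (GRCm38).

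Lsm3 had 32, 21 and 32 in Larp7-/- hearts, against 38, 49 and 38 in Larp7+/+ hearts, with means of 28.3 ± 6.35 and 41.7 ± 6.35 (SD, n = 3 each; log2 change -0.56, SE 0.20, adjusted p = 0.203). Lsm4 had 136, 116 and 135 in Larp7-/- hearts, against 171, 191 and 172 in Larp7+/+ hearts (log2 change -0.46, SE 0.16, adjusted p = 0.186). In both genes the groups did not overlap, and the knockout sample with number 2 was the lowest. Without either sample of that number the change of Lsm3 was -0.24. Lsm2 had 51, 47 and 46 in Larp7-/- hearts, against 60, 64 and 65 in Larp7+/+ hearts (log2 change -0.39, SE 0.16, adjusted p = 0.267). Lsm6 had 79, 83 and 80, against 105, 102 and 104 (log2 change -0.36, SE 0.16, adjusted p = 0.298), the narrowest spread among these genes relative to the gap between Larp7-/- and Larp7+/+ hearts. Lsm8, the subunit that distinguishes the nuclear U6 ring from the cytoplasmic Lsm1 ring of mRNA decapping, had 48, 44 and 50 in Larp7-/- hearts, against 55, 60 and 54 in Larp7+/+ hearts (log2 change -0.25, SE 0.16, adjusted p = 0.512), again without overlap. Lsm5 was low throughout, with 6, 5 and 2 in Larp7-/- hearts, against 6, 6 and 9 in Larp7+/+ hearts (log2 change -0.65, SE 0.33, adjusted p = 0.395), and was the ring gene whose groups overlapped.

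**Figure D1:**
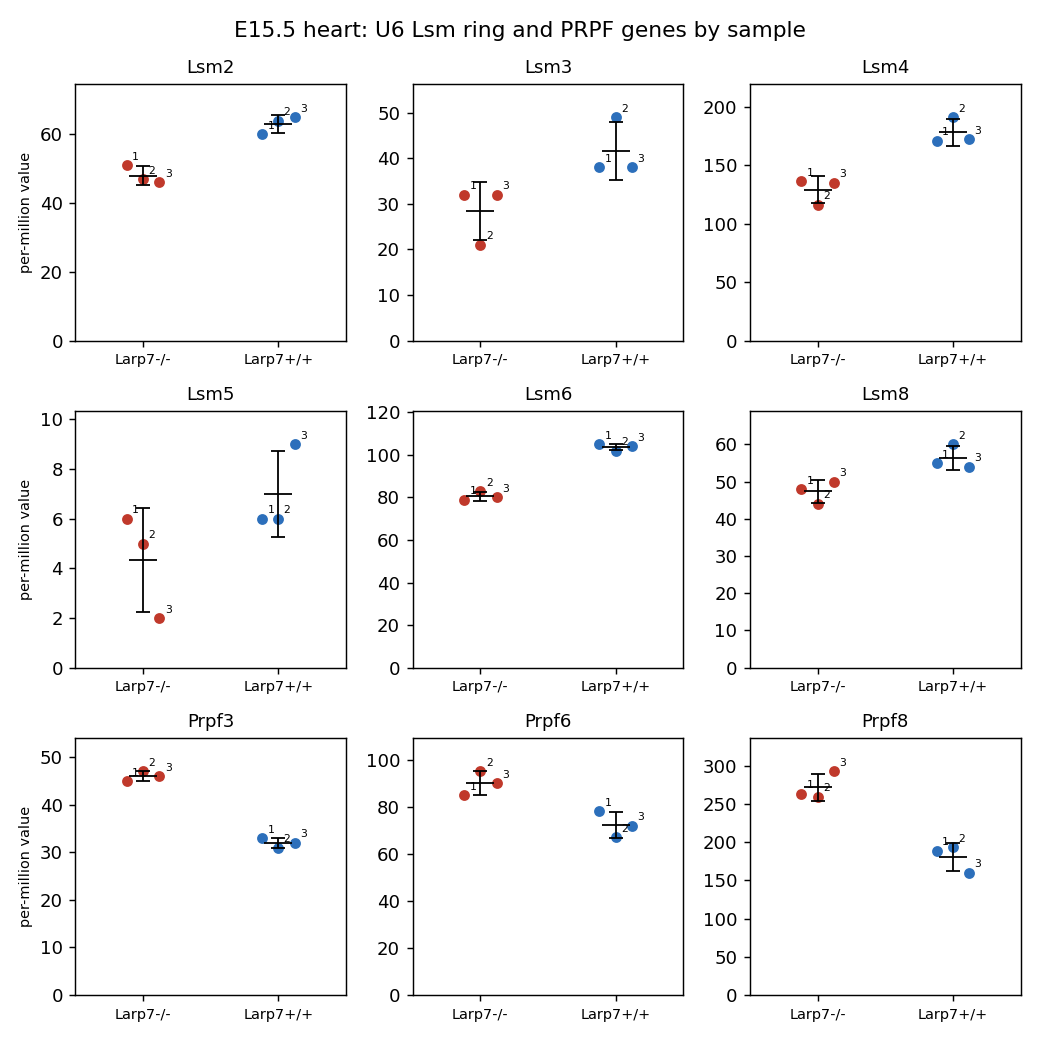
Per-million values (y axis, linear, one scale per panel) of 6 U6 ring genes and 3 PRPF genes in the 3 Larp7-/- samples (left) and the 3 Larp7+/+ samples (right) at E15.5; digits are replicate numbers and bars are mean ± SD. The Larp7-/- points lie below the Larp7+/+ points in all ring panels but Lsm5, and above them in Prpf3, Prpf6 and Prpf8, where Prpf8 has 260 to 293 against 160 to 194. These 3 had the highest changes of the 11 PRPF genes, whose median of 0.13 was close to the 0.107 of all tested genes.

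The other Lsm genes were divided, with 3 positive and 3 negative changes and a median of 0.08. Lsm11, a subunit of the U7 snRNP that trims histone mRNA, had 45, 41 and 46 in Larp7-/- hearts, against 33, 38 and 32 in Larp7+/+ hearts (log2 change 0.35, adjusted p = 0.352). Lsm12 had 36, 28 and 28, against 18, 27 and 26 (log2 change 0.37, SE 0.20, adjusted p = 0.413), with its groups only 1 unit apart. Without either sample numbered 1 the change of Lsm12 was 0.0769. Lsm1 of the decapping ring had 43, 42 and 41 in Larp7-/- hearts, against 48, 49 and 50 in Larp7+/+ hearts (log2 change -0.22), so it had the sign of the U6 ring genes without passing the test.

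In the snRNP core, 9 of 10 genes had a negative change, with a class median of -0.22, and in 6 the Larp7-/- values lay wholly below. Snrpd2 encodes the Sm protein D2. It had 63, 52 and 48 in Larp7-/- hearts, against 73, 84 and 87 in Larp7+/+ hearts, means of 54.3 ± 7.77 and 81.3 ± 7.37 (SD, n = 3 each; log2 change -0.58, SE 0.17, adjusted p = 0.0955). The groups were apart, and the difference was the largest negative one in the class among genes with a mean of at least 10. Snrpe, another Sm gene, had 34, 29 and 29, against 37, 42 and 41 in Larp7+/+ hearts (log2 change -0.37, SE 0.17, adjusted p = 0.322). Snrpb and Snrpg of the same ring had changes of -0.23 and -0.24, and Snrpa of the U1 snRNP and Snrpa1 of the U2 snRNP had -0.21 and -0.15, all without overlap between groups. Snrpa1 had 65 in each Larp7-/- sample and 72 in each Larp7+/+ sample.

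Snrpn was the exception of the class. It encodes SmN, a close relative of the Sm protein B, from an imprinted locus at chr7:59982495-60140219 (GRCm38), and had 99, 109 and 86 in Larp7-/- hearts, against 74, 63 and 87 in Larp7+/+ hearts (log2 change 0.39, SE 0.17, adjusted p = 0.285), with overlap at number 3. Its exons overlap those of Snurf on the same strand, so reads of the 2 genes cannot be told apart without the counting rules. Snrpf and Snrpert, the second a processed pseudogene that matches the name rule, did not exceed 4 units in any sample.

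Among PRPF genes, 9 of 11 had a positive change, and in 4 (36.4%) the Larp7-/- values lay wholly above. Over all tested genes 60.4% had a positive change and 19.3% lay wholly above. The PRPF median of 0.13 was close to the 0.107 of all tested genes. Prpf8, the scaffold of the catalytic centre in the U5 snRNP, had 264, 260 and 293 in Larp7-/- hearts, against 189, 194 and 160 in Larp7+/+ hearts, means of 272.3 ± 18.0 and 181.0 ± 18.4 (SD, n = 3 each; log2 change 0.59, SE 0.17, adjusted p = 0.0891). Prpf3, part of the U4/U6 snRNP, had 45, 47 and 46, against 33, 31 and 32 (log2 change 0.51, SE 0.17, adjusted p = 0.149). Both genes were separated between Larp7-/- and Larp7+/+ hearts by more than the range within either group. Prpf6, which bridges U5 to U4/U6, had 85, 95 and 90, against 78, 67 and 72 in Larp7+/+ hearts (log2 change 0.31, SE 0.16, adjusted p = 0.378). Prpf19, the ubiquitin ligase of the Prp19 complex, had 324, 380 and 314 in Larp7-/- hearts, against 362, 307 and 373 in Larp7+/+ hearts (log2 change -0.03, SE 0.17, adjusted p = 0.976), with the groups interleaved. Prpf31 and Prpf4, like Prpf3 members of the U4/U6 snRNP, had changes of 0.13 and 0.10, and their groups overlapped.

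Snrnp200, the helicase that unwinds U4 from U6 and is held by PRPF8, lies outside the name rule. It had 185, 172 and 199 in Larp7-/- hearts, against 126, 138 and 111 in Larp7+/+ hearts (log2 change 0.57, SE 0.16, adjusted p = 0.102). Eftud2, the GTPase of the same U5 core, had 132, 171 and 138, against 146, 108 and 140 (log2 change 0.16, adjusted p = 0.719). Snrnp200 values were thus apart between groups and Eftud2 values were not; Eftud2 was picked for its place in U5 after its values could be seen.

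The promoters of 3 genes are given because these genes were at the extremes of their own classes at E15.5 among genes with a mean of at least 10 units, Lsm3 and Snrpd2 lower and Prpf8 higher in Larp7-/- hearts. The sequences come from RefSeq on GRCm38.p6, all on the plus strand, and run from 250 bases before to 50 after the annotated start: Lsm3 at chr6:91515785-91516084, Snrpd2 at chr7:19149588-19149887 and Prpf8 at chr11:75486527-75486826. Capitals mark matches to 2 short motifs, searched on both strands: the GC box, with the letters GGGCGG or their reverse complement CCGCCC, and the CCAAT box, whose reverse complement is ATTGG.
Lsm3: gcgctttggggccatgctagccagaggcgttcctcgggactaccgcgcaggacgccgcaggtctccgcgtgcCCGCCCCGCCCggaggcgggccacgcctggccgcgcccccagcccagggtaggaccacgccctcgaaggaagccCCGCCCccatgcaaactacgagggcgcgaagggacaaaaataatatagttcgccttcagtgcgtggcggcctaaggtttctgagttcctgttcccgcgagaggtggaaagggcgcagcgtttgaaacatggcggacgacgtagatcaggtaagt
Snrpd2: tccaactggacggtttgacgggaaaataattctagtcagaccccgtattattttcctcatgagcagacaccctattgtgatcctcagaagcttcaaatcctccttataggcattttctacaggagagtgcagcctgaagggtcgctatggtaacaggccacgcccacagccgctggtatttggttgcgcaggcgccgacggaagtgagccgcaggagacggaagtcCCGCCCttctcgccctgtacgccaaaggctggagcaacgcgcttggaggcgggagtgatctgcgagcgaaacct
Prpf8: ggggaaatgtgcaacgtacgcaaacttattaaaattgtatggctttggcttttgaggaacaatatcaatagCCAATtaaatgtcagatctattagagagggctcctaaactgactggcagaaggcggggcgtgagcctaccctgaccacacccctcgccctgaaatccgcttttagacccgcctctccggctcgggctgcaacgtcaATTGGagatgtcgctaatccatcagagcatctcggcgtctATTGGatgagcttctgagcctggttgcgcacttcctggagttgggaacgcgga
The Lsm3 window holds 3 GC boxes, of which 2 share a base, and no CCAAT box. The Snrpd2 window holds 1 GC box and the Prpf8 window 3 CCAAT boxes and no GC box. A GC box occurs in 35.7% of all 32851 promoters of that length and a CCAAT box in 37.4%, and a match of letters is a description, not a bound site.

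The SF3 genes were close to even, with 4 positive and 3 negative changes and a median of 0.01. Sf3b3, a scaffold of the SF3b complex, had 167, 177 and 172 in Larp7-/- hearts, against 153, 142 and 147 in Larp7+/+ hearts (log2 change 0.22, SE 0.16, adjusted p = 0.560). Sf3b5, one of the small SF3b subunits, had 56, 52 and 55, against 61, 65 and 63 (log2 change -0.21, SE 0.16, adjusted p = 0.585). The groups were apart in both, in opposite directions. Sf3b1, the subunit that contacts the branch point, had 383, 401 and 444 in Larp7-/- hearts, against 391, 374 and 330 in Larp7+/+ hearts (log2 change 0.17, adjusted p = 0.712), with overlap.

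In the SR class only Srsf6 had groups that did not overlap. Srsf6, a regulator of alternative exons, had 184, 170 and 131 in Larp7-/- hearts, against 206, 220 and 259 in Larp7+/+ hearts, means of 161.7 ± 27.5 and 228.3 ± 27.5 (SD, n = 3 each; log2 change -0.50, SE 0.17, adjusted p = 0.179). Its change was -0.27 without either sample numbered 3, and it passed the test without the Larp7+/+ sample numbered 2 (adjusted p = 0.0243, limma). Srsf1, an SR protein with a known role in postnatal heart splicing, had 976, 504 and 474 in Larp7-/- hearts, against 46, 518 and 548 in Larp7+/+ hearts. Its log2 change of 1.38 (SE 1.43, adjusted p = 0.753) rested on the pair of samples numbered 1. Without the Larp7-/- or the Larp7+/+ sample of that number the log2 change was -0.12. Srsf2 was likewise most unequal at number 1, with 183, 386 and 298 in Larp7-/- hearts, against 483, 280 and 368 in Larp7+/+ hearts (log2 change -0.41, SE 0.45, adjusted p = 0.753). Both genes have exons that overlap genes on the other strand, Srsf2 with Mettl23 and Mfsd11, and whether strand was used in counting is not given.

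The hnRNP genes split evenly, 8 positive and 7 negative, with a median of 0.01. Hnrnpdl, an AU-rich element binding relative of hnRNP D, had 385, 394 and 365 in Larp7-/- hearts, against 277, 269 and 297 in Larp7+/+ hearts (log2 change 0.44, SE 0.17, adjusted p = 0.227). The groups were far apart relative to the spread within them. Hnrnpab had 353, 228 and 264, against 319, 443 and 407 (log2 change -0.48, SE 0.20, adjusted p = 0.281), with overlap at number 1, and its exons overlap Phykpl on the other strand. Hnrnpl, which binds CA-rich RNA, had 396, 380 and 376 in Larp7-/- hearts, against 312, 327 and 332 in Larp7+/+ hearts (log2 change 0.25, adjusted p = 0.531). Hnrnpa2b1 had 999, 1011 and 965, against 998, 985 and 1031, and differed by less than the spread between samples.

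**Figure D2:**
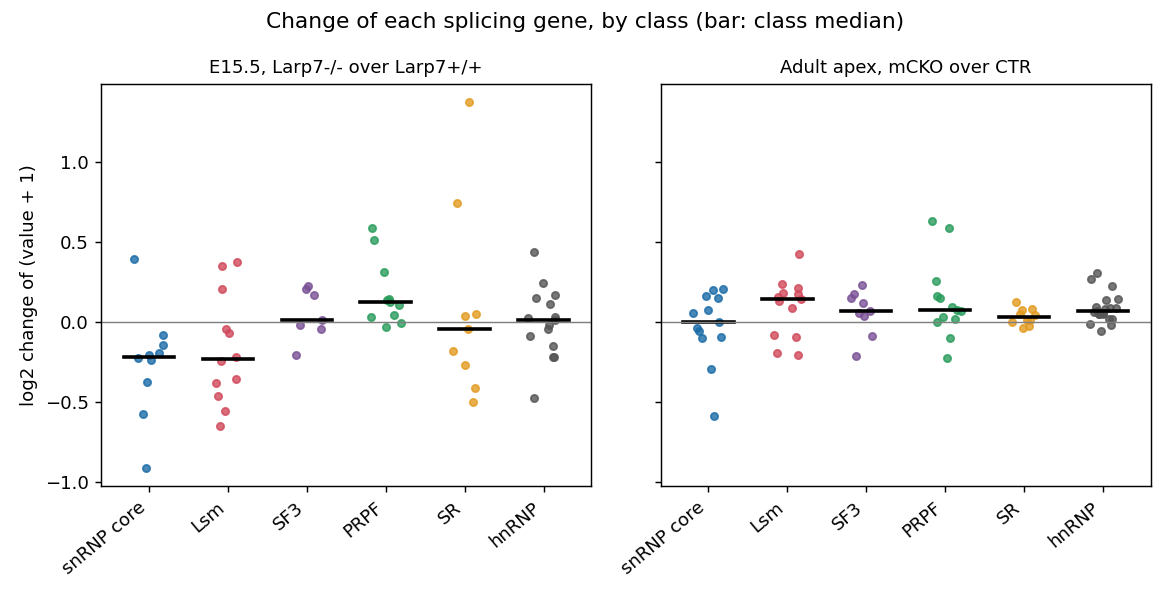
Log2 change of each member gene (points, y axis) by class (x axis) in the embryonic and the adult comparison, with a black bar at the class median and a grey line at 0. At E15.5 the medians of the snRNP core (-0.22) and the Lsm class (-0.23) lie below 0. The PRPF median is 0.13, against 0.107 over all tested genes (not drawn). The adult class medians lie between 0.00 and 0.14.

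Several measures moved with these class differences, and their part in them was not tested. Gene length did: among genes with a mean of at least 10, the median log2 change at E15.5 was -0.20 in the shortest decile of genes (mRNAs of 225 to 1291 bases), where 77.4% of genes had a negative change, and 0.18 in the longest decile (6605 to 123179 bases). Spearman's rho between change and length was 0.325 across 7419 genes and 0.471 across 60 members, as a description of genes that share the same 6 samples. Ring and snRNP core genes are mostly short and Prpf8 is long. In a step added after the values had been seen, each change was set against the median of genes in the same length decile. The change was then -0.26 for Lsm4, -0.35 for Lsm3, -0.18 for Lsm2, -0.04 for Lsm8 and -0.52 for Lsm6. The annotated Lsm6 mRNA of 3792 bases is the longest of the ring. Outside the ring Lsm1 had -0.35 and Lsm14b -0.16, while Lsm10, Lsm11, Lsm12 and Lsm14a had 0.13, 0.20, 0.25 and 0.07. On the same footing Snrpd2 had -0.56, Srsf6 -0.63, Prpf3 0.38 and Prpf8 0.41, while the class medians were -0.09 for the snRNP core, -0.16 for Lsm, -0.08 for SF3, 0.01 for PRPF, -0.13 for SR and -0.13 for hnRNP genes, and -0.26 for the ring. On that footing the snRNP core median was close to the SF3 median and above those of the SR and hnRNP classes.

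**Figure D3:**
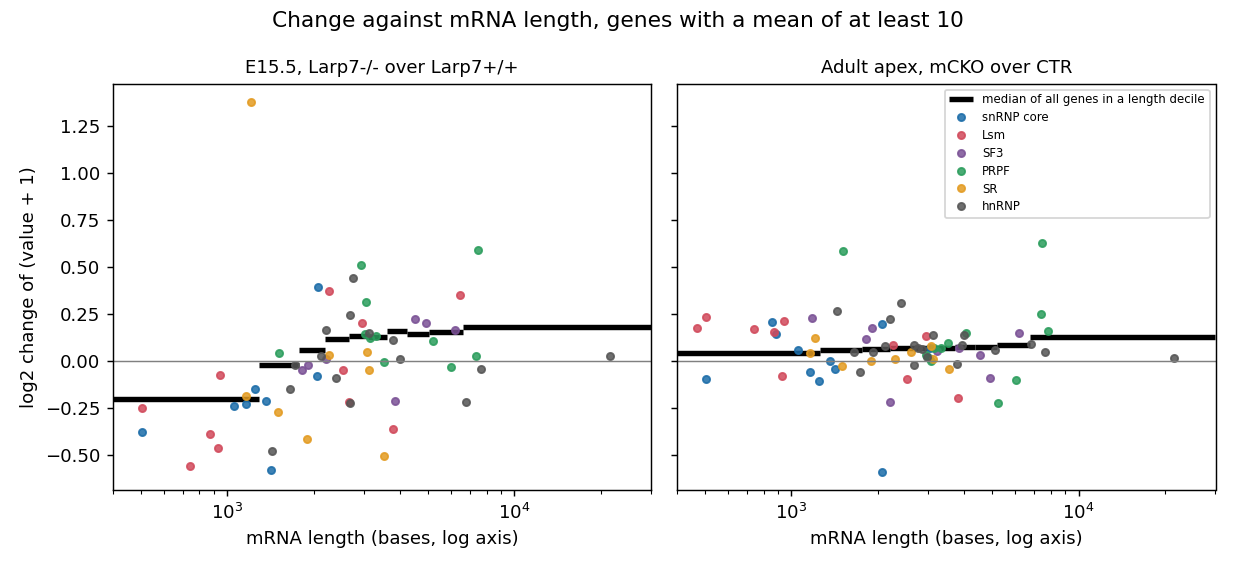
Log2 change (y axis) against mRNA length in bases (x axis, log scale) for the members with a mean of at least 10 units, by class, with black bars for the median of all genes in each length decile. At E15.5 the bars run from -0.20 in the shortest decile to 0.18 in the longest, and in the adult from 0.05 to 0.13.

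Cell type markers moved too. All 4 cardiomyocyte markers listed at E15.5 of 8 (Myh6, Myh7, Ryr2 and Actn2 were not listed) had a negative change, and their summed level was 11665 to 14294 in Larp7-/- hearts, against 15411 to 18041 in Larp7+/+ hearts. The 4 of 6 fibroblast markers listed all had a positive change, with sums of 4025 to 4972 in Larp7-/- hearts and 3062 to 4011 in Larp7+/+ hearts. Sums for cycling cells (5 of 6 listed) overlapped, at 1465 to 1723 and 1384 to 1641, and none of the listed markers was at 0. In such bulk samples fewer cells of a type and less RNA per cell cannot be told apart.

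Beyond the named classes, splicing genes from 5 wider lists held no call at E15.5, where only 0.632% of all tested genes were called. Of 19 further snRNP protein genes 7 had a positive and 12 a negative change, and of 24 catalytic-stage and Prp19 complex genes 16 and 8. Snrnp35 of the minor spliceosome had 16, 16 and 14 in Larp7-/- hearts, against 22, 22 and 24 in Larp7+/+ hearts (log2 change -0.54, SE 0.20, adjusted p = 0.222). Cwc25, a factor of the first catalytic step, had 33, 36 and 32, against 24, 21 and 25 (log2 change 0.51, SE 0.18, adjusted p = 0.187). Both were without overlap. Rbm8a, a subunit of the exon junction complex and the lowest of its list, had 75, 67 and 69 in Larp7-/- hearts, against 88, 96 and 93 in Larp7+/+ hearts (log2 change -0.39, SE 0.16, adjusted p = 0.257), also without overlap. The 23 genes of snRNP assembly and U6 maturation divided into 12 positive and 11 negative, the 11 SR kinases and SR-related genes into 6 and 5, and the 29 other sequence-specific binding proteins into 14 and 15. Rbm3, a cold-inducible RNA-binding protein, had 140, 111 and 122 in Larp7-/- hearts, against 162, 190 and 179 in Larp7+/+ hearts (log2 change -0.51, SE 0.17, adjusted p = 0.148), without overlap. At the other end of its list Mbnl1, a regulator of developmental splicing, had 491, 808 and 540, against 591, 273 and 541 in Larp7+/+ hearts (log2 change 0.43, SE 0.48, adjusted p = 0.760), with overlap.

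For snRNP assembly the extremes were Gemin5 of the SMN complex, with 51, 51 and 56 in Larp7-/- hearts, against 43, 43 and 39 in Larp7+/+ hearts (log2 change 0.33, adjusted p = 0.363), and Clns1a, which carries Sm proteins, with 72, 76 and 80, against 99, 96 and 90 (log2 change -0.32, adjusted p = 0.366). For the SR-related genes they were Clk4, a kinase of SR proteins, with 74, 90 and 80 in Larp7-/- hearts, against 70, 54 and 65 in Larp7+/+ hearts (log2 change 0.37, adjusted p = 0.305), and Tra2a, with 143, 143 and 144, against 168, 168 and 166 (log2 change -0.22, adjusted p = 0.559). None of these 4 overlapped between groups.

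The authors' deposited table for E15.5 gives 6 members an unadjusted p under 0.05, among 3.48% of all its genes, and an adjusted p to 33 of the 64 members, with 0.103 the lowest. Snrpd2, Lsm2 and Lsm3 are among those given none. In that table Lsm4 has a log2 change of -0.53 and Prpf8 one of 0.52. The test across all genes had 2 residual degrees of freedom per gene and pooled the rest of its spread over genes of similar level. The number of members called was 7 in a fit without the replicate block (604 of all genes), 2 (Prpf8 and Snrpd2) with no filter on low values (601 of all genes) and 3 without the Larp7+/+ or the Larp7-/- sample numbered 2 (502 and 484 of all genes).

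In the adult apex the class medians lay between 0.00 and 0.14, and 1 of 78 members passed the test. Snrpn fell to 24 and 18 units in the mCKO samples, against 28 and 36 in the CTR samples, means of 21 ± 4.24 and 32 ± 5.66 (SD, n = 2 each; log2 change -0.59, SE 0.17, adjusted p = 0.0242, limma). The groups were apart by 4 units, and at E15.5 the same gene had the opposite sign. Of all 14835 genes tested 3.29% were called, 2.34% higher and 0.95% lower in mCKO samples. The call for Snrpn was lost in several other fits, with an adjusted p of 0.137 without the block, 0.570 with a plain eBayes prior, 0.620 with the block and no rounding variance, 0.072 without the second CTR sample and 0.115 without the second mCKO sample. The number of called members was then 3 and 0 (1284 and 940 of all genes), and it was 2 without the first CTR or the first mCKO sample (842 and 626 of all genes). In the authors' deposited table its log2 change is -0.67 with an unadjusted p of 0.239, and no member there has a p under 0.05, against 1.31% of its genes.

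The adult median change was 0.07 over the members, against 0.076 over all tested genes. The 2 groups did not overlap in 23 members that were higher in mCKO samples (29.5%) and in 11 that were lower (14.1%). These shares were near those of all tested genes, 29.3% and 12.8%. Among the 72 members with a mean of at least 10 units the shares were 31.9% higher and 15.3% lower. Both were below the 36.1% and 17.6% of all genes at that level. At an unadjusted p under 0.05 there was 1 of 78 members with higher and 1 with lower values, where the shares over all genes were 9.05% and 3.3%. A positive change stood in 56 of 78 members, against 57.9% of all tested genes, and a negative one in 19 of 78 (24.4%), against 28.6%. The rest had a change of 0, which was more frequent among all tested genes than among members, so the positive shares are not on a like footing. Among genes with a mean of at least 10, 21.2% to 38.3% had a negative change, depending on the decile of mRNA length.

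Ring genes had small differences of both signs in the adult, 4 positive and 3 negative. Lsm8 had 15 and 16 in the mCKO samples, against 13 and 13 in the CTR samples (log2 change 0.24, SE 0.21, adjusted p = 0.782), and Lsm6 had 16 and 16, against 19 and 18 (log2 change -0.20, SE 0.19, adjusted p = 0.827). Lsm2 had 13 and 14, against 12 and 12, and Lsm7 had 12 and 12, against 10 and 11 in the CTR samples, with changes of 0.16 and 0.18. Lsm3 had 29 and 32, against 29 and 25 (0.17), Lsm4 had 43 and 42, against 45 and 45 (-0.08), and Lsm5 had 3 and 2, against 3 and 3 (-0.21). The groups overlapped in Lsm3 and Lsm5 and stood 1 to 2 units apart in the rest.

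Among the other classes Prpf38a, a factor that joins the spliceosome before its activation, had 16 and 18 in the mCKO samples, against 12 and 10 in the CTR samples (log2 change 0.59, SE 0.21, adjusted p = 0.107). Prpf8 had 156 and 104, against 60 and 112 (log2 change 0.63, SE 0.46, adjusted p = 0.785). Its mean was higher in the mCKO samples, as at E15.5, but the groups overlapped and the sample pair numbered 1 carried the difference. Prpf4 had 18 and 16 in the mCKO samples, against 20 and 20 in the CTR samples (log2 change -0.22, SE 0.19, adjusted p = 0.757). Snrpd1, an Sm gene, had 14 and 14, against 12 and 12 (log2 change 0.21, SE 0.21, adjusted p = 0.854). Sf3b6, which binds at the branch point within SF3b, had 25 and 28, against 24 and 21 (log2 change 0.23, SE 0.17, adjusted p = 0.699), and Sf3a2 had 32 and 28, against 33 and 37 (log2 change -0.22, SE 0.16, adjusted p = 0.685). These differences did not pass the test, and in all of these genes but Prpf8 the groups were apart.

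Srsf1 had 100 and 96 in the mCKO samples, against 88 and 92 in the CTR samples (log2 change 0.12, SE 0.15, adjusted p = 0.877), with none of the inequality of its embryonic samples. Srsf6 had 89 and 88, against 90 and 92 (log2 change -0.04, SE 0.15, adjusted p = 0.996). Of 20 hnRNP genes 17 had a positive change. Their median was 0.07, close to that of all genes. Hnrnpf, which binds G-rich tracts, had 36 and 30, against 24 and 29 (log2 change 0.31, SE 0.17, adjusted p = 0.443), and Hnrnpa2b1 had 440 and 429, against 446 and 457 (log2 change -0.06, SE 0.14, adjusted p = 0.959).

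**Figure D4:**
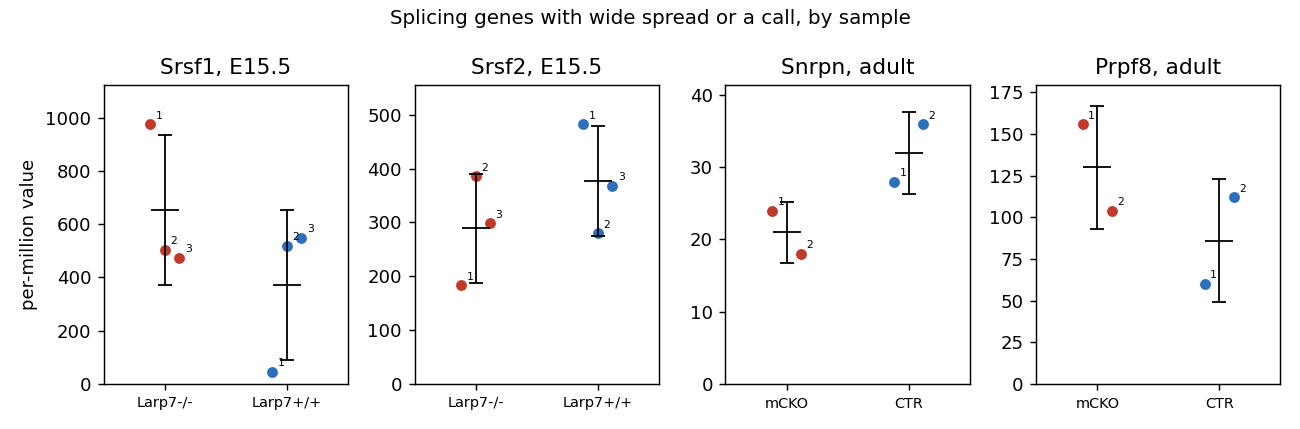
Per-million values (y axis) of Srsf1 and Srsf2 at E15.5 and of Snrpn and Prpf8 in the adult, knockout samples left and control samples right, with digits for replicate numbers and bars for mean ± SD. Srsf1 at number 1 stands at 976 in the Larp7-/- sample and 46 in the Larp7+/+ sample, and adult Prpf8 at number 1 at 156 in the mCKO sample and 60 in the CTR sample.

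Among the wider lists 2 genes of 40 other sequence-specific binding proteins passed the adult test, both lower. Of all tested genes 3.29% passed, 0.95% lower in mCKO samples. Rbfox1, which directs muscle and heart alternative splicing, fell to 23 and 23 in the mCKO samples, against 42 and 41 in the CTR samples (log2 change -0.82, SE 0.16, adjusted p = 9.15e-05). Cirbp, a cold-inducible RNA-binding protein, fell to 18 and 18, against 32 and 30 in the CTR samples (log2 change -0.75, SE 0.18, adjusted p = 0.00159). The calls were lost with the block and no rounding variance (adjusted p of 0.0555 for Rbfox1 and 0.183 for Cirbp) and with a plain eBayes prior (0.144 and 0.228). Rbfox1 was not listed at E15.5, where Cirbp had 60, 66 and 48 in Larp7-/- hearts, against 75, 68 and 87 in Larp7+/+ hearts (log2 change -0.40, adjusted p = 0.280), without overlap. No gene of the other 4 lists was called in the adult: the 33 snRNP protein genes had 24 positive and 8 negative changes, the 29 catalytic-stage genes 15 and 9, the 23 assembly genes 16 and 4, and the 22 SR-related genes 11 and 8.

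The extremes of the adult lists other than Rbfox1 had log2 changes between -0.26 and 0.42. Snrnp48 of the minor spliceosome had 22 and 18 in the mCKO samples, against 14 and 18 in the CTR samples (log2 change 0.31), and Sf1, which binds the branch point first, had 98 and 102, against 116 and 112 (-0.19). Bud31 had 36 and 44, against 36 and 29 (0.29), and Casc3 of the exon junction complex had 31 and 28, against 34 and 37 in the CTR samples (-0.26). Gemin5 had 16 and 14, against 10 and 12 (0.42), and Wdr77, of the complex that methylates Sm proteins, had 15 and 15, against 16 and 17 (-0.13). Scaf4 had 29 and 25, against 21 and 26 (0.20), Srrm1 had 78 and 80, against 88 and 87 (-0.15), and Celf2 had 81 and 75, against 57 and 64 in the CTR samples (0.36). The groups met or overlapped in Snrnp48, Bud31 and Scaf4 and were apart in the rest, and the adjusted p of these genes lay between 0.198 for Celf2 and 0.925 for Wdr77.

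Adult marker sums moved as well, and their part in these results was not tested. All 6 fibroblast markers were listed, 5 of them with a positive change, and summed to 2070 to 2336 in the mCKO samples, against 1155 to 1421 in the CTR samples. All 6 markers of cycling cells had a positive change, with sums of 40 to 50 against 16 to 25. The 8 cardiomyocyte markers summed to 52777 to 53369 in the mCKO samples, against 56073 to 56665 in the CTR samples. They did not move together, with 2 positive and 6 negative changes. Of these 8, 1 passed the test, with higher values in the mCKO samples, where 2.34% of all tested genes were called higher. The trend with mRNA length was slight in the adult, with a Spearman's rho of 0.086 across 8310 genes and -0.092 across 72 members. With 2 samples a group and the block, 1 residual degree of freedom was left, so the SE of nearly every member is that of genes of similar level; Prpf8, whose own spread was wide, kept more of it.

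Of the 63 members in both tables, 34 had the same sign in both comparisons (54.0%), 13 of them negative and 21 positive. Over all 9769 genes set side by side the share was 51.7%, with 5054 of the same and 3322 of the opposite sign. Among the members 26 had opposite signs. Genes unchanged in either table have no sign to compare. They were more frequent among all genes than among members, so these shares are not on a like footing. Relative to opposite signs, the same sign was less frequent among members than among all genes. With median-of-ratios scaling of both tables, 33 members had the same sign (52.4%, against 55.4% of all genes), 22 of them negative and 11 positive, so the split between signs turned round. With the deposited values, 20 of the 26 members with opposite signs had a negative change at E15.5 and a positive one in the adult, and 6 the reverse. The difference between the 2 comparisons was not tested, because the tables were normalized separately.

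The level of most members was lower in adult than in embryonic control hearts. In 59 of 63 shared members (93.7%) both adult CTR values lay below all 3 Larp7+/+ values at E15.5, against 65.7% of all 10503 shared genes, and in 2 members (3.17%, against 16%) they lay above. The tables were normalized separately, and age, tissue piece and table cannot be told apart, so no test was made. With median-of-ratios scaling across the tables, added after the data were seen, 38 of 63 were lower (60.3%), against 41.2% of all genes, and 11 were higher (17.5%, against 38.8%).

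The median difference, adult minus embryo on the log2 scale, was -1.39 over the members and -0.90 over all shared genes, or -0.43 and -0.03 with median-of-ratios scaling. It was -2.16 for SR genes, -1.80 for hnRNP genes, -1.67 for Lsm genes, -1.32 for SF3 genes, -1.10 for PRPF genes and -1.0 for the snRNP core. The widest gap was that of Hnrnpf, with 24 and 29 in adult CTR samples, against 969, 850 and 913 in Larp7+/+ embryos (log2 difference -5.05). Hnrnpa3 had 29 and 27, against 402, 417 and 400 (-3.81), Sf3b4 had 10 and 12, against 131, 122 and 137 (-3.45), and Srsf10 had 40 and 44, against 352, 287 and 355 (-2.95). Lsm12 went the other way, with 32 and 32 in the adult, against 18, 27 and 26 in the embryo.

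**Figure D5:**
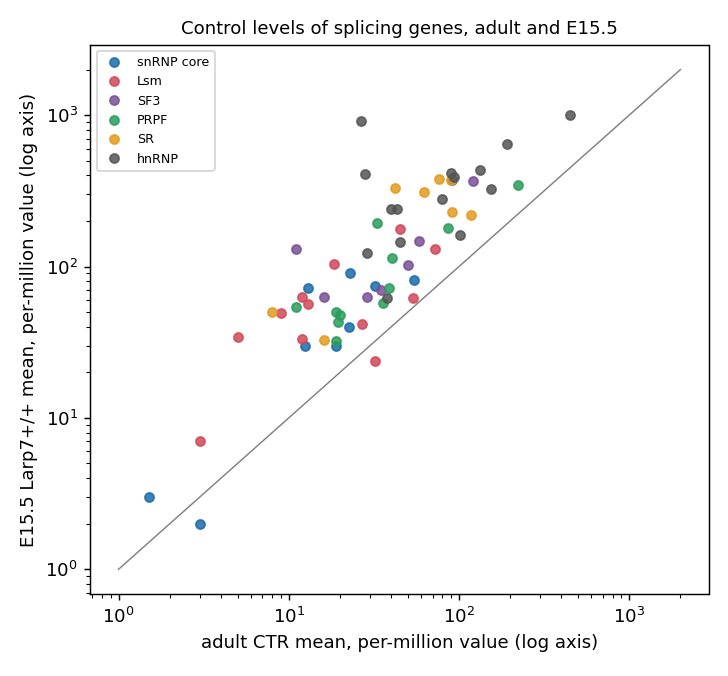
Mean per-million value of each shared member in adult CTR apex (x axis, log scale) and in Larp7+/+ hearts at E15.5 (y axis, log scale), coloured by class, with a grey line where both are equal. Nearly all points lie above the line, and Hnrnpf lies farthest from it, with 24 and 29 in the adult against 850 to 969 in the embryo.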

How the data were processed

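Total RNA was extracted from whole embryonic hearts or adult apex tissue with a column kit and DNase, per the labels' protocols. Per the submitters' processing notes, reads were handled with HISAT2 and HTSeq on mm10; no versions are named. Each table deposited by the authors holds a score per gene and sample, a per-million value rounded to whole numbers; the sources used here do not tell whether it is TPM or CPM, nor how it was adjusted. The authors also deposited a mean signal per gene, a log2 fold change with its standard error, and p-values, used here only where named as theirs.

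Within each table log2(value + 1) was tested with limma 3.58.1 (R 4.3.3), so fold changes of low genes are understated. A gene was tested if at least as many samples as 1 group holds reached a value of 1, which kept 13609 of 15498 embryonic and 14835 of 15989 adult genes. The model blocked on replicate number and had rounding variance added for each gene; it used eBayes with trend and robust options and adjusted p-values by Benjamini-Hochberg over all tested genes at 0.05. A check of the fit on simulated data covered the sign and the correlation of known changes and set no limit on false calls. The block rests on the fixed totals of same-numbered samples (8328 of 8366 and 8642 of 8658 genes with a mean of at least 10), whose deviations correlate negatively across genes (-0.82 to -0.80 in embryonic samples, -0.81 in adult ones), and not on a pairing in the labels.

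Named genes are the called members, the highest and lowest change of each class in each table among members with a mean of at least 10, Lsm2 to Lsm8, Larp7, and from the wider lists the called genes and the extremes of each list; other genes were named after their values were seen. The members and lists were chosen with earlier results of these data known. mRNA lengths and positions came from GENCODE M21 on GRCm38, for the mRNA of the longest coding sequence (lengths for 88.7% of embryonic and 96.0% of adult genes with a mean of at least 10). RefSeq promoters matched 67 of 79 members. Alternatives were the block, rounding variance, pseudocount, filter, scaling, prior and each sample left out in turn.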

Additional observations from a re-analysis of the deposited data

Results flagged for a closer look

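In 5 of 63 members tested in both tables (7.94%) the knockout and control values did not overlap in either table, with opposite directions in embryo and adult, against 5.52% of all 9769 genes. As many members (7.94%, against 11.1% of all genes) were apart in both with the same direction: Lsm4, Lsm6, Snrpe and Srsf6 lower and Lsm12 higher in the knockout. The difference between the comparisons was not tested, since the tables were normalized separately, and no change of the 5 genes with opposite directions passed the test in either table. Lsm2 had a log2 change of -0.39 in embryonic and 0.16 in adult hearts. For Lsm8 it was -0.25 in embryonic and 0.24 in adult hearts. Sf3b5 had -0.21 in embryonic and 0.0702 in adult hearts. Hnrnpu, which encodes a nuclear scaffold protein, had -0.0417 in embryonic and 0.0476 in adult hearts. Hnrnpl had 0.25 in embryonic and -0.0187 in adult hearts, the one of those 5 that was higher in the embryonic knockout. Groups that did not overlap were found in 28.1% of all genes tested in embryonic and 42.1% in adult hearts.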

How the results depend on the processing

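The count of members called at E15.5, 0 in the reported limma fit (86 of all genes), was 7 with no replicate block (604 of all genes), 11 with neither block nor rounding variance (1040) and 2 with no filter on low values (601). It ranged from 0 to 3 when each sample was left out (213 to 502 of all genes), reaching 3 without either sample numbered 2. The adult count, 1 in the reported fit (488 of all genes), was 0 with no replicate block (409), 2 with the block and no rounding variance (1130), 5 with neither (1622), 0 with a plain eBayes prior (610), and 0 to 3 when each sample was left out (626 to 1284) in a fit without the block, in which the lone sample is assumed to vary like the other group. With crossed replicate numbers in the adult, added after seeing the data, 43 members and 6285 genes were called; with the fixed totals both crossed pairs of a gene have nearly the same difference, so its residual is near 0 by construction. The embryonic median over members, -0.03, was -0.0903 with median-of-ratios scaling and -0.08 to 0.00 when each sample was left out. Prpf19 at E15.5 (-0.03) ranged from -0.20 to 0.0737 when each sample was left out, with 0.0296 without either sample numbered 1, and Srsf1 (1.38) from -0.12, without either numbered 1, to 2.17; the cause was not tested. Without either sample numbered 2 the E15.5 change was -0.24 for Lsm3, -0.24 for Hnrnpab and 0.20 for Snrpn, without either numbered 3 it was -0.27 for Srsf6 and -0.11 for Lsm5, and without either numbered 1 it was 0.0769 for Lsm12. Members lower in adult control hearts numbered 38 of 63 with median-of-ratios scaling across the tables. Relative to genes of the same length decile the E15.5 medians of the classes lay between -0.16 and 0.01. Larp7 at E15.5 lost its call with no rounding variance (adjusted p = 0.473), a mean of at least 10 (0.332) and a plain eBayes prior (0.529). Rounded per-million values hide depth, so no counting error could be given, and genes near a value of 1 are limited by rounding.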

Other observations

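RefSeq promoters of the members (GRCm38.p6, 89 promoters of 67 genes, from 250 bases before to 50 after the start, both strands searched) held some short motifs more often than all 32851 promoters did, with no test made. The GC box GGGCGG was in 67.4% of member promoters, against 35.7% of all. The ETS core CCGGAAG was in 29.2%, against 8.86%, and in 7 of 8 SF3 promoters. The TATA box TATAAA was in 7.87%, against 13.6%. All 8 promoters of 6 U6 ring genes held a GC box and 3 held a CCAAT box, while of 14 PRPF promoters 6 held a GC box and 8 a CCAAT box. A GC box was in 5 of 14 snRNP core, 4 of 8 SF3, 13 of 14 SR and 21 of 27 hnRNP promoters. A CCAAT box was in 4, 3, 4 and 17 of them. Promoters of 1 gene overlap, so they are not independent.

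Another 15 members were listed for the adult but not for the embryo, among them Hnrnpa1, Hnrnpc, Hnrnpk, Snrpd1, Snrpd3, Srsf3 and Srsf7, and Srsf12 was listed for the embryo alone. Srsf12 had 7, 5 and 6 units in Larp7-/- hearts, against 2, 5 and 3 in Larp7+/+ hearts (log2 change 0.74, SE 0.32, adjusted p = 0.283, limma), with overlap.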
